A study of Mus musculus with 4 samples.

Results

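Olig1/Olig2-expressing neurons of the mouse olfactory epithelium were examined as cells selected on their own transcript counts. A cell belonged to them when it had at least 2 unique molecular identifiers (UMIs, each standing for 1 captured transcript) of Olig1 and Olig2 together, at least 3 of Gap43 and none of Sox10. Gap43, growth-associated protein 43, marks immature olfactory sensory neurons, and Sox10 marks oligodendrocytes and the glia of the olfactory nerve. The rule chose 989 of the 9110 cells kept, 256, 378, 238 and 117 in the libraries of postnatal days 0, 3, 7 and 21 (P0 to P21). They were set against the 991 Gap43 neurons (same limits on Gap43 and Sox10) in which neither Olig1 nor Olig2 had a UMI, 461, 265, 180 and 85 cells. The mice were of the outbred CD-1 strain, taken on postnatal day 0, 3, 7 or 21, with 1 library for each age and no treatment or transgene in the labels. Age and library therefore cannot be told apart. How many mice of which sex were used, and how the cells were sorted, is not given in the sources used here.

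Olig1 and Olig2 are basic helix-loop-helix transcription factors, proteins that bind DNA in pairs at short sites called E boxes. They are best known from the oligodendrocyte lineage of the brain and, for Olig2, from motor neuron precursors. In the olfactory epithelium, basal stem cells give rise to precursors with Neurog1 and Neurod1, then to immature neurons with Gap43, and finally to mature neurons with olfactory marker protein (Omp), each of which expresses mainly a single odorant receptor gene and sends its axon to a place in the olfactory bulb set by that receptor. In mm10 Olig2 lies on chromosome 16 from 91225457 to 91228677 and Olig1 from 91269772 to 91271933, with 41095 bases between them.

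The promoter windows of Olig2 and of a pair of neighbouring genes that were higher together in these neurons, Cyp4v3 and Klkb1, are shown 5′ to 3′ on the gene's own strand, as RefSeq gives them for GRCm38.p6. The windows are chr16:91225300-91225599 (plus strand), chr8:45333114-45333413 and chr8:45294786-45295085 (both minus strand). Capitals mark matches, on either strand, to the E box CAGATG, the E box CATATG and the E box CAGCTG, to TAATTA, a core that LIM homeodomain proteins such as Lhx2 bind, and to CCCNNGGG, a form of the site of the olfactory factors Ebf1 to Ebf4.
Olig2: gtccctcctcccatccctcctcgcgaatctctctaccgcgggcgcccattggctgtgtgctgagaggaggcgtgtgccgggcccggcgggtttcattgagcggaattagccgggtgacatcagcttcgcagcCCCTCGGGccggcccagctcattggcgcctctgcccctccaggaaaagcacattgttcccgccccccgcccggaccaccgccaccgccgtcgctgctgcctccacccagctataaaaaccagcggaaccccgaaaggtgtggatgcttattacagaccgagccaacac
Cyp4v3: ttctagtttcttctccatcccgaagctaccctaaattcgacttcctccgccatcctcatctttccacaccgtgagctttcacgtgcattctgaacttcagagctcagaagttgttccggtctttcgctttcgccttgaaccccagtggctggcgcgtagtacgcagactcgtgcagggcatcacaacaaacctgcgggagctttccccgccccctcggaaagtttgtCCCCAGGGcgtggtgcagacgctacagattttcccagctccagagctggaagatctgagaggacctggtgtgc
Klkb1: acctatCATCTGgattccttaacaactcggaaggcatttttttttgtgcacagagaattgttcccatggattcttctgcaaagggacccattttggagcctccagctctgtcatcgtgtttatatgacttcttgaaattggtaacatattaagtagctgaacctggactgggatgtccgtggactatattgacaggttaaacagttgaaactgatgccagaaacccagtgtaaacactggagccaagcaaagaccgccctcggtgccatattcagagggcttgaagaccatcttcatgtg
The Klkb1 window held 1 CAGATG match and no other of these motifs, and the Olig2 and Cyp4v3 windows held 1 CCCNNGGG match each. CAGATG occurred in 10.9% of the windows of all genes tested below, in 9.41% of those of genes higher in Olig-positive cells and in 14.8% of those of genes lower. CATATG stood in 1.65%, 2.75% and 3.48%, and CAGCTG in 14.1%, 16.5% and 14.8%. TAATTA stood in 2.54%, 5.10% and 3.04%, and CCCNNGGG in 17.9%, 19.6% and 22.6%. The shares are descriptions of these letters in these windows. Receptor genes were left out of the higher and lower sets, but not out of the genes tested. Of the 268 genes higher and 219 lower that remained, 181 and 163 had a window.

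The 4 libraries held 9126 deposited cells, of which 9110 passed the limits of at least 500 genes and at most 10% mitochondrial UMIs. Depth was like between the classes compared, with medians of 3686 (P0), 6084 (P3), 5566 (P7) and 7171 (P21) UMIs in Olig-positive cells and 3911, 6127, 5900.5 and 7009 in Olig-negative ones. The P0 and P3 libraries shared 68 cell barcodes and the other pairs 1 to 9, and 14 of the 989 Olig-positive cells carried a shared barcode. Without such cells the counts of genes given below were 276 and 226 in place of 274 and 224. Levels below are given as CPM, the UMIs of a gene in the summed cells of a class scaled to the total UMIs of those cells, and their intervals are exact Poisson intervals that cover counting error only.

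Olig1 and Olig2 were found along the neuronal lineage and were lower in basal, stromal, leukocyte and glial cells. In precursors (Neurog1 and Neurod1 of 2 or more UMIs together, Gap43 under 3) Olig1 stood at 201, 218, 311 and 173 CPM (P0, P3, P7 and P21) and Olig2 at 324, 216, 271 and 176. In Gap43 neurons with under 10 Omp UMIs they stood at 141, 243, 245 and 271 CPM and at 174, 195, 199 and 204 CPM. In mature neurons (Omp of 10 or more, Gap43 under 3) Olig1 stood at 69.99, 101, 120 and 216 CPM, and Olig2 at 60.9, 53.1, 54.8 and 72.7. Olig2 was thus lower in mature neurons than in Gap43 neurons in each library, beyond its counting intervals, and the ratio of Olig1 to Olig2 went from 0.812, 1.24, 1.24 and 1.33 in the Gap43 neurons to 1.15, 1.89, 2.20 and 2.97. Basal and stromal cells had 0 to 13.5 CPM of either gene, leukocytes at most 32.8, and glia, of which there were 3 to 44 cells a library, at most 40.5, with wide counting intervals in the glia. Cells that met none of these gates (802, 696, 478 and 256 cells) were not without the genes, at 147, 96.4, 168 and 117 CPM of Olig1 and 194, 71.9, 126 and 63.1 CPM of Olig2.

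**Figure D1:**
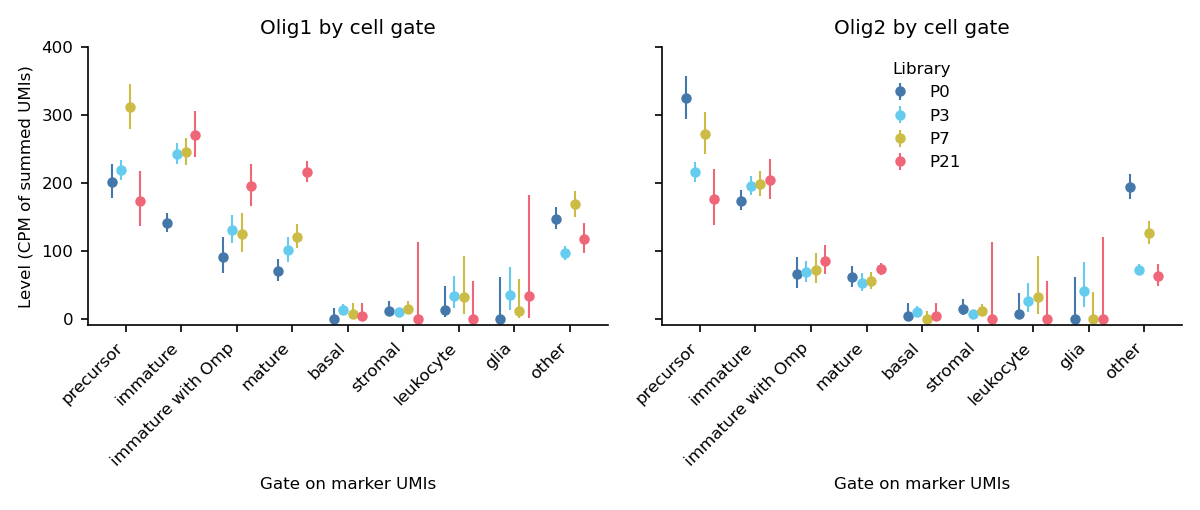
Levels of Olig1 (left) and Olig2 (right) in CPM for 8 gates on marker UMIs and for the cells that met none of them (other), 1 point per library with its 95% Poisson interval. Both genes are high in precursors and immature neurons and lower in basal, stromal, leukocyte and glial cells; Olig1 in mature neurons runs from 69.99 CPM at P0 to 216 at P21.

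Each cell with at least 1500 UMIs was also thinned to 1500, which removes differences in depth, and shallower cells were left out of these shares. At least 1 UMI of Olig1 or Olig2 was then found in 50.9%, 41.2%, 49.5% and 36.7% of precursors, in 33.1%, 39.4%, 41.9% and 41.1% of Gap43 neurons with little Omp, and in 16.8%, 14.5%, 22.7% and 28.7% of mature neurons. Of these stages mature neurons had the lowest share in each library and precursors the highest in each but P21. In stromal cells, which should lack both genes, the share was 3.45%, 2.07%, 1.31% and 0% of the 145, 531, 153 and 9 cells thinned. Without thinning it was 3.89%, 3.72%, 3.03% and 0% of all 180, 537, 165 and 10 stromal cells. The median depth of stromal cells was 2277, 3920, 4135 and 2348 UMIs.

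Among all Gap43 neurons without Sox10, 27.1% of the P0 cells were Olig-positive (95% Clopper-Pearson interval 24.3 to 30.1%), 44.8% of the P3 cells (41.4 to 48.3%), 44.1% of the P7 cells (39.8 to 48.4%) and 45.7% of the P21 cells (39.5 to 52.0%). The P0 share was the lowest, but P0 cells were also the shallowest. At 1500 UMIs per cell and a limit of 1 UMI the shares were 31.3% (28.3 to 34.3%), 36.6% (33.3 to 39.9%), 39.1% (34.9 to 43.4%) and 35.5% (29.5 to 41.7%), so that P21 no longer differed from P0 beyond counting error. With 1 library per age no test between ages was possible, and the sort, whose gate is not known here, can set these shares.

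The neurons form a range of Olig levels and not a set apart from the rest. Of the 989 cells, 313 had exactly 2 Olig UMIs, 358 had 3 or 4 and 318 had 5 or more, with a maximum of 11, 21, 18 and 18 at P0, P3, P7 and P21. Just outside the limit, 603 further Gap43 neurons had 1 Olig UMI. On the Gap43 side, 114 Olig-positive cells had exactly 3 Gap43 UMIs, and 185 cells with 2 or more Olig UMIs were left out with 2. Both genes had a UMI in 690 of the 989 cells, Olig1 alone in 178 and Olig2 alone in 121. The Sox10 limit removed none of the Olig-positive cells and 7 Olig-negative ones, all at P3. The values that chose the cells followed the choice: the summed cells had 410, 432, 438 and 440 CPM of Olig1 and 428, 322, 336 and 285 CPM of Olig2, against 0.

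Summed over their list, markers of immature olfactory neurons stood at like levels in both classes, which were both chosen on Gap43. No precursors or mature neurons were set beside them. Of the Olig-positive cells 7.03%, 15.3%, 11.8% and 38.5% had 10 or more Omp UMIs at P0, P3, P7 and P21. The 14 immature neuron markers other than Gap43 summed to 11372 to 13269 CPM in Olig-positive cells and to 10912 to 12449 in Olig-negative ones. Single members differed: in the test across all genes below, Lhx2, Hdac2 and Nhlh2 were called higher and none lower. The list median was 0.15 on the log2 scale, and Stmn2 and Stmn4 differed by -0.35 and -0.48, under the 1.5-fold limit. Of all genes tested 3.11% were called higher. Gng8, the G protein gamma subunit of immature olfactory neurons, stood at 1262, 1062, 949 and 889 CPM against 1113, 1013, 829 and 724. The oligodendrocyte list gave 25.9 to 58.0 CPM in Olig-positive and 35.6 to 89.4 CPM in Olig-negative cells over the 14 listed genes in the tables, and Mog, Mag, Nkx2-2, Myrf and Gpr17 had no UMI in any Olig-positive cell. The bulb interneuron list summed to 207 to 282 CPM in Olig-positive and 32.0 to 76.0 CPM in Olig-negative cells, most of it from Dlx5 and Dlx6, the only members with enough UMIs to be tested, which both rose. Gad2 of that list had 36 UMIs against 12, and Gad1, Dlx1, Dlx2, Sp9 and Slc32a1 had none in Olig-positive cells. The vomeronasal list summed to 1518 to 1924 CPM against 1229.5 to 1697, and of its 8 members tested Robo2 rose, Calr4 fell by 1.55 ± 0.21 (adjusted p 4.84e-06) and Bcl11b differed by 0.57 ± 0.06, under the 1.5-fold limit (adjusted p 2.28e-07). The channel gene Trpc2 and Tfap2e of that list had no UMI in Olig-positive cells. Whether cells of these other types have a part in the differences was not tested.

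Olig-positive cells lay somewhat earlier along the lineage than Olig-negative ones. Cells without an Omp UMI were 47.7%, 52.9%, 60.5% and 25.6% of the Olig-positive cells and 37.7%, 34.0%, 43.9% and 20% of the Olig-negative ones. A UMI of Tex15, a germ cell and olfactory precursor gene, was found in 17.6%, 17.7%, 19.3% and 10.3% against 4.34%, 2.64%, 4.44% and 0%. Neurod1 or Neurog1 was found in 7.81%, 10.8%, 8.82% and 8.55% against 3.04%, 9.06%, 3.89% and 2.35%. Read the other way, 17.6%, 37.4%, 32.2% and 45% of the Gap43 neurons with 10 or more Omp UMIs were Olig-positive, against 29.8%, 55.6%, 48.3% and 50.8% of those with none. Gap43 itself stood at 2796, 2349, 2655 and 2374 CPM in Olig-positive and 3543, 3318, 3319 and 3256 CPM in Olig-negative cells. Stage moves with the classes in every comparison below, and its part in them was not tested beyond the subsets of cells that are given.

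Pcdh11x, Tshz1 and Cyp4v3 had been proposed from these data and are described without a test. Pcdh11x, an X-linked protocadherin of the delta group that joins cells by adhesion, stood at 252, 187, 227 and 167 CPM in the Olig-positive cells and at 41.1, 17.1, 36.7 and 10.7 CPM in Olig-negative cells. The lowest Olig-positive library lay above the highest Olig-negative one. Tshz1, a zinc finger transcription factor of the teashirt family, stood at 252, 268, 284 and 196 CPM against 59.1, 65.3, 123 and 30.2. Cyp4v3, a cytochrome P450 that oxidises fatty acids, stood at 61.6, 87.8, 78.0 and 71.7 CPM against 14.1, 12.7, 13.9 and 10.7. For these genes too the libraries of the classes did not overlap. As log2 of the CPM ratio with 10 CPM added, the differences were 2.67 ± 0.38 for Pcdh11x, 1.83 ± 0.50 for Tshz1 and 1.89 ± 0.23 for Cyp4v3 (mean ± SD, n = 4 libraries).

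All 3 genes followed the number of Olig UMIs in the cell. In the Gap43 neurons of all libraries, Pcdh11x went from 29.1 CPM in cells with no Olig UMI through 69.8 with 1, 121 with 2, 168 with 3 or 4 and 254 with 5 to 7 to 382 CPM with 8 or more. A Pcdh11x UMI was found in 8.38% of the 991 cells with none and in 56.7% of the 120 cells with 8 or more. These cells were not thinned, and their median depths were 4574 and 6868.5 UMIs. P0 gave 461 of the 991 cells and 4 of the 120. Tshz1 went from 70.9 to 425 CPM over the same bins and Cyp4v3 from 13.2 to 175. Cells with 1 Olig UMI, which lie outside both classes, stood between them for each of the genes in each library. By cell gate Pcdh11x differed from Olig1 and Olig2: it stood at only 2.31 to 7.17 CPM in precursors, and at 89.8 to 128.1 CPM in Gap43 neurons with little Omp and 70.6 to 95.7 CPM in mature neurons. Basal cells, which had almost no Olig1 or Olig2, had 16.4, 63.2, 131 and 78.9 CPM of it. Tshz1 was already at 185 to 277 CPM in precursors.

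**Figure D2:**
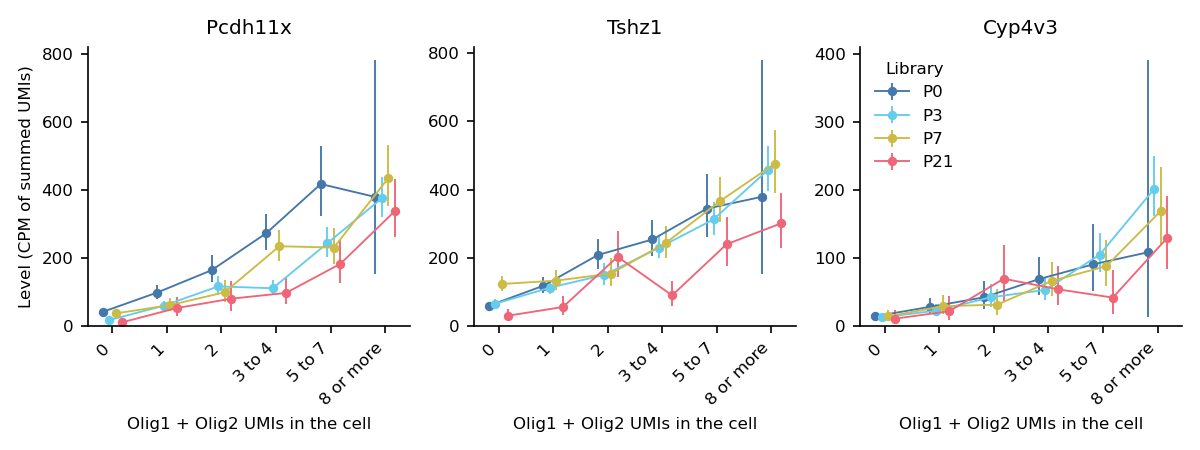
Levels of Pcdh11x, Tshz1 and Cyp4v3 in CPM (vertical axes, differing in scale) in Gap43 neurons grouped by their number of Olig1 and Olig2 UMIs (horizontal axis), by library, with 95% Poisson intervals. Levels rise with the Olig UMIs in all libraries, with some reversals between neighbouring bins; the last bin at P0 holds 4 cells.

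Across all genes, the UMI sums of both classes of each library were tested with edgeR's quasi-likelihood test with the library as a block, over the 4 libraries. A gene was called at a Benjamini-Hochberg adjusted p under 0.05 and a change of at least 1.5-fold. Of 8812 genes tested, 274 (3.11%) were higher in Olig-positive cells and 224 (2.54%) lower, 258 and 188 of them in the same direction in each library. The median log2 difference of all genes was -0.00. The count depends on the cells compared: among Gap43 neurons with 10 or more Omp UMIs, 45 were higher and 51 lower of 4109 tested, and without cells with a Neurod1 or Neurog1 UMI 231 and 194. The p-values rest on how far the difference between the classes varies over these 4 libraries, each of which may hold pooled mice.

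Several transcription factors of olfactory development were among the genes that rose. Lhx2, a LIM homeodomain factor needed for olfactory neurons and their receptor genes, stood at 625, 561, 695 and 548 CPM in Olig-positive cells against 302, 309, 366 and 269 CPM, a log2 difference of 0.95 ± 0.05 (SE; adjusted p 1.91e-13). The classes did not overlap. Emx2, a homeodomain factor that acts on receptor gene expression, rose by 1.06 ± 0.07 on the log2 scale (adjusted p 3.33e-12), from 125 to 153 CPM to 270 to 315 CPM. Dlx5 and Dlx6, distal-less homeodomain factors of the olfactory placode that lie 9237 bases apart on chromosome 6, rose by 2.21 ± 0.13 (adjusted p 1.52e-12) and 1.84 ± 0.14 (adjusted p 2.72e-10). Dlx5 stood at 125, 145, 131 and 115 CPM against 35.5, 33.0, 19.9 and 14.2. Nhlh2, a helix-loop-helix factor of young neurons, rose by 1.72 ± 0.11 (adjusted p 2.57e-12).

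The chromatin genes Smchd1 and Hdac2 and several genes of other kinds were also higher. Smchd1, a chromosome-structure protein that silences clustered genes, stood at 286, 247, 302 and 209 CPM against 104, 95.7, 98.3 and 80.1, a log2 difference of 1.46 ± 0.07 (adjusted p 5.33e-14). The histone deacetylase Hdac2 rose by 0.93 ± 0.05 (adjusted p 9.49e-13). Crabp1, which binds retinoic acid in the cytoplasm, stood at 750, 737, 811 and 457 CPM against 220, 164, 319 and 30.2, a difference of 1.88 ± 0.11 (adjusted p 2.03e-12). The ratio of the classes was highest at P21, where the Olig-negative cells had the least, and their difference in CPM was smallest there. Col9a2, a chain of collagen IX, rose by 1.81 ± 0.10, the tubulin-binding Tppp3 by 1.32 ± 0.08, the AP-1 subunit Jun by 0.95 ± 0.06 and the actin-binding Cotl1 by 0.80 ± 0.05 (adjusted p 8.45e-13, 2.57e-12, 2.57e-12 and 1.52e-12). Hist1h2al, annotated as a processed pseudogene, was also higher by 0.94 ± 0.04, and its reads may belong to near-identical histone copies.

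**Figure D3:**
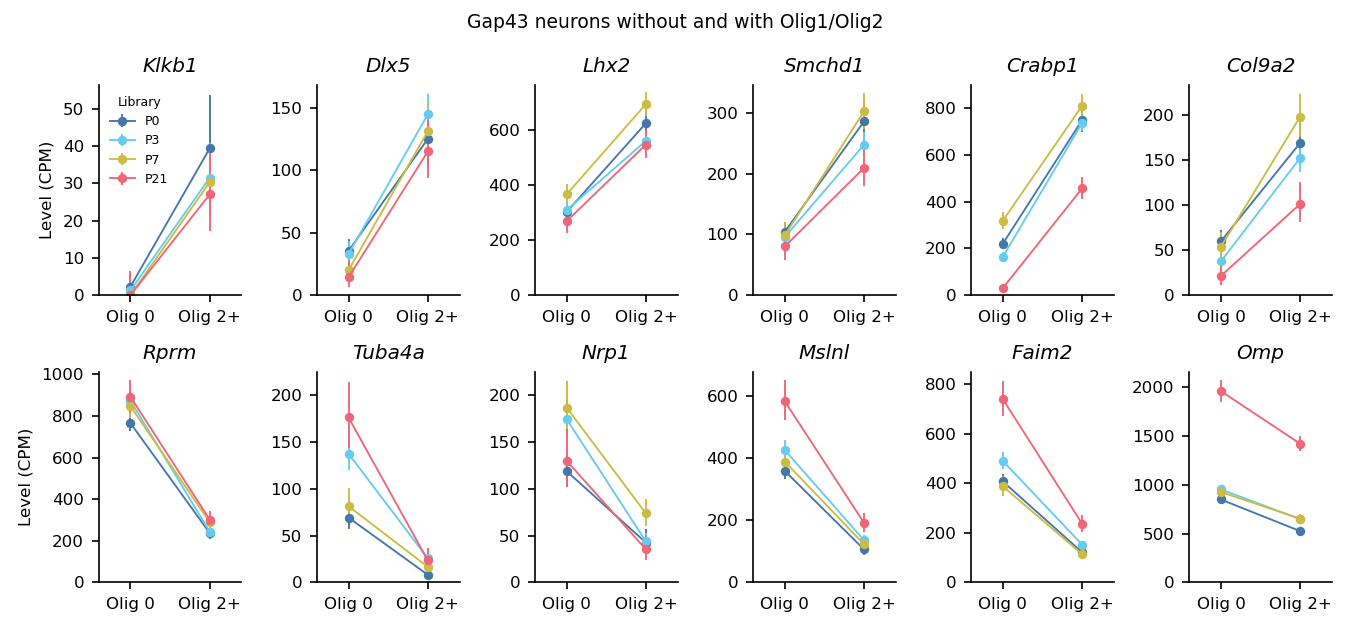
Levels in CPM (vertical axes from 0, differing in scale) of 12 genes in Gap43 neurons without Olig UMIs (left in each panel) and with 2 or more (right), 1 line per library with 95% Poisson intervals. The first 6 genes are higher and the last 6 lower in Olig-positive cells in all 4 libraries; Rprm falls to between 237 and 302 CPM from between 767 and 893.

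Klkb1, plasma prekallikrein, is the neighbour of Cyp4v3 on chromosome 8. It lies from 45266689 to 45294859 and Cyp4v3 from 45304944 to 45333216 in mm10, on the same strand, with 10085 bases between them. Klkb1 had 39, 75, 42 and 23 UMIs in Olig-positive cells and 4, 2, 0 and 0 in Olig-negative cells at P0, P3, P7 and P21, which is 39.4, 31.5, 30.3 and 27.0 CPM against 2.25, 1.27, 0 and 0. It entered the test through its UMIs in Olig-positive cells, so no p is given. It was singled out after its values were seen. Whether reads that run past the end of 1 gene reach the other cannot be read from these counts.

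The genes that fell included axon guidance, cytoskeletal and signalling genes. Rprm, a p53-induced inhibitor of the cell cycle, stood at 237, 244, 289 and 302 CPM against 767, 875, 848 and 893, a log2 difference of -1.69 ± 0.05 (adjusted p 4.09e-18). This was the smallest p among the genes that fell, and the classes did not overlap. Tuba4a, an alpha tubulin, stood at 8.08, 25.6, 16.6 and 23.5 CPM against 69.3, 138, 81.4 and 176 (log2 difference -2.57 ± 0.14, adjusted p 3.05e-13). Nrp1, the semaphorin receptor that takes part in sorting olfactory axons, stood at 42.4, 43.7, 73.6 and 35.3 CPM against 119, 174, 187 and 130 (-1.68 ± 0.11, adjusted p 5.43e-12). The difference was -1.71 ± 0.06 for Faim2, an inhibitor of Fas-mediated cell death, -1.67 ± 0.06 for Mslnl, a mesothelin-like gene, and -1.56 ± 0.09 for the growth factor Ptn (adjusted p 1.15e-17, 3.73e-17 and 4.23e-13). Nsg1, Ly6h, Tmbim6 and Ckb (brain creatine kinase) also fell, with log2 differences of -0.64, -0.97, -0.65 and -0.66.

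By pathway, axon sorting genes moved both ways. Of 23 tested, 4 were higher (Plxna1, Efna5, Robo2 and Sema3a) and 6 lower (Nrp1, Epha5, Kirrel2, Plxna4, Kirrel3 and Plxna3), with a list median of -0.17. Plxna1, a co-receptor for semaphorins, rose by 1.07 ± 0.15 (adjusted p 4.36e-06) from 21.4 to 29.3 CPM to 45.9 to 59.6 CPM, and Epha5, an ephrin receptor, fell by 0.90 ± 0.15 (adjusted p 4.66e-05). Its ligand Efna5 rose by 0.66 ± 0.11 (adjusted p 7.70e-05). Of the 8 delta protocadherins tested, Pcdh8 rose beside Pcdh11x, by 0.60 ± 0.17 (adjusted p 0.0157), and Pcdh7, Pcdh9 and Pcdh1 fell, with differences of -1.27 ± 0.13, -0.85 ± 0.12 and -0.94 ± 0.23. Pcdh7 stood at 37.4, 33.2, 41.9 and 19.99 CPM against 78.3, 74.8, 119 and 51.6, without overlap. Among Gap43 neurons with 10 or more Omp UMIs the Pcdh9 difference was 0.21 in the other direction and missed the threshold.

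Mature and transduction genes were lower on balance. Of 14 markers of mature neurons 7 fell and none rose, with a median of -0.60. Of 16 genes of odour transduction 7 fell (Stoml3, Gng13, Cnga2, Gnal, Pde4a, Adcy3 and Ano2) and 2 rose (Gnas and Ncald). The lists overlap: Stoml3, Gng13, Cnga2, Gnal, Adcy3 and Ano2 are on both. Kirrel2, the remaining mature marker that fell, is also on the axon sorting and activity lists. Cnga2, the main subunit of the olfactory channel, stood at 236, 267, 258 and 460 CPM against 451, 470, 424 and 715 (-0.78 ± 0.05, adjusted p 1.78e-11). Adcy3, the adenylyl cyclase that makes its cyclic AMP, fell by 0.89 ± 0.12 (adjusted p 2.15e-06). S100a5, a calcium-binding protein whose level follows activity in olfactory neurons, fell by 1.16 ± 0.07 (adjusted p 8.61e-13), and 3 of 7 activity genes fell and none rose. Omp itself stood at 524, 646, 653 and 1419 CPM against 849, 952, 926 and 1957, a difference of -0.56 ± 0.04 that is under the 1.5-fold limit.

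Precursor genes were higher: 5 of 7 tested rose (Lhx2, Tex15, Hes6, Neurod1 and Neurog1) and none fell, with a median of 1.22. Tex15 stood at 101, 154, 185 and 85.8 CPM against 19.1, 22.8, 61.6 and 0, and rose by 2.32 ± 0.18 (adjusted p 2.33e-10). Of 13 helix-loop-helix genes tested 5 rose (Nhlh2, Id4, Hes6, Neurod1 and Neurog1) and Id3 fell. Hes6, Neurod1 and Neurog1 are on the precursor list too. Ube2c and Top2a, 2 of 4 cell cycle genes tested, were called higher. Ube2c stood at 19.2, 105, 11.5 and 62.3 CPM against 6.76, 11.4, 0.993 and 0, and entered the test mainly through its UMIs in Olig-positive cells. With a Gap43 limit of 1 UMI the Top2a difference was -0.10, and at P21 a UMI of Mki67 or Top2a was found in 2.56% of the Olig-positive and 3.53% of the Olig-negative cells. Of 19 genes of receptor choice and trafficking, Lhx2 and Emx2 rose, Adcy3 fell and 16 did not pass, with a median of 0.02. Lhx2 is on the precursor list too, and Adcy3 on the transduction list. Of 9 markers of dorsal and ventral zones, Robo2 and Nfia rose (Nfia differed by -0.0003 with a Gap43 limit of 1 UMI) and Acsm4, a dorsal zone gene, fell by 0.94 ± 0.07 (adjusted p 1.13e-10), from 261 to 447 CPM to 121 to 216. Robo2 is on the axon sorting list too. Of the 16 genes on the list of known Olig partners, 4 had enough UMIs to be tested and none was called. With 3.11% of all genes called higher and 2.54% lower, so few genes say little.

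Stromal and glial markers were low in both classes but not equal. The stromal list summed to 5.88 to 60.5 CPM in Olig-positive and 7.12 to 252.9 in Olig-negative cells, and the list of nerve glia to 31.0 to 43.5 and 33.8 to 162.9, the highest value in each case in the P3 Olig-negative cells. Col1a1, a stromal collagen, and Fabp7, a glial lipid-binding protein, were lower in Olig-positive cells through that library: Fabp7 stood at 10.1, 7.56, 11.5 and 5.88 CPM against 10.7, 86.8, 11.9 and 1.78. Without the P3 library its difference was 0.08 and missed the threshold. Apod, a lipid-carrying apolipoprotein of the glial list, was lower in each library, at 15.2, 14.7, 13.0 and 19.99 CPM against 28.7, 33.6, 23.8 and 28.5, and fell by 0.94 ± 0.20 (adjusted p 0.00125). Leukocyte and basal cell lists stayed under 46 CPM. Without the P3 library 205 genes were higher and 173 lower over the whole table.

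A comparison of mature neurons, added after the data were seen, asked which of these differences held in cells with much Omp and little Gap43. Cells with 10 or more Omp UMIs, fewer than 3 of Gap43 and none of Sox10 were split by the same Olig limits into 30, 48, 62 and 221 Olig-positive and 138, 124, 152 and 375 Olig-negative cells. They are other cells of the same 4 libraries. Of 6734 genes tested, 97 (1.44%) were higher and 151 (2.24%) lower. Some of the genes that rose in Gap43 neurons did not pass here: Lhx2 stood at 348, 287, 338 and 336 CPM against 318, 279, 392 and 341, and the differences of Smchd1, Hdac2, Emx2, Jun and Id4 lay between -0.19 and 0.33. Tex15, Neurod1, Neurog1, Nhlh2 and Dlx5 had too few UMIs in mature neurons to be tested. Whether they differ from the differences in Gap43 neurons was not tested.

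Pcdh11x, Tshz1 and Cyp4v3 were again higher, at 301, 234, 267 and 152 CPM against 33.9, 33.9, 23.5 and 11.8 for Pcdh11x and 94.4, 73.2, 38.2 and 27.7 against 6.47, 9.25, 2.76 and 3.27 for Cyp4v3. Klkb1 had 17, 29, 18 and 52 UMIs against 6, 0, 0 and 7. Tppp3 stood at 478, 685, 483 and 214 CPM against 95.4, 157, 46.9 and 30.0, a difference of 2.56 ± 0.12 (adjusted p 2.75e-22) beside 1.32 in Gap43 neurons. Cd55, which protects cells from complement, stood at 159, 225, 303 and 133 CPM against 9.70, 30.8, 33.1 and 17.0 (3.09 ± 0.16, adjusted p 3.02e-21). Cd36, a scavenger receptor of a subset of olfactory neurons, stood at 112, 104, 158 and 79.7 CPM against 12.9, 7.71, 2.76 and 9.14. It entered the test through its UMIs in Olig-positive cells, so no p is given, and had too few UMIs for the test in Gap43 neurons. Cd9, a tetraspanin, rose by 0.89 ± 0.07 in mature neurons (adjusted p 1.11e-14) and differed by -0.05 ± 0.04 in Gap43 neurons.

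On the lower side, Tuba4a stood at 17.7, 73.2, 35.6 and 14.3 CPM against 178, 322, 328 and 282 (-3.31 ± 0.18, adjusted p 2.27e-20). Nrp1 stood at 5.90, 16.9, 10.2 and 10.9 CPM against 61.4, 91.0, 82.8 and 74.5. Neither gene's classes overlapped. Nrp1 entered this test mainly through its UMIs in Olig-negative cells, so no p is given for it. The log2 difference was -2.19 ± 0.10 for Mslnl, -2.48 ± 0.22 for the metalloprotease Adam28, -2.15 ± 0.14 for the lipid droplet protein Cidea and -1.76 ± 0.16 for Cadps2, which primes vesicles (adjusted p 9.25e-23, 1.33e-12, 2.48e-17 and 2.35e-12). Of 6 activity genes 4 fell (Pcp4l1, Lrrc3b, S100a5 and Hopx), with Pcp4l1 at 342, 358, 827 and 974 CPM against 1097, 1406, 1739 and 2441. Adcy3 fell by 0.77 ± 0.08 (adjusted p 1.58e-10), and the differences of Pde4a and Epha5 were -0.76 ± 0.08 and -0.83 ± 0.10. Omp stood at 3789.7, 4031, 5206 and 6619.7 CPM against 4078, 4653, 5337 and 6891 and did not pass. Of 12 immature neuron markers tested here, Dpysl3 (1.01 ± 0.21, adjusted p 0.00067) and Crmp1 (0.76 ± 0.21, adjusted p 0.0149) were higher and none lower. Of 14 mature neuron markers, Adcy3 and Ano2 were lower and none higher. The part of stage in this comparison was not tested. Olig-positive mature cells were deeper, with medians of 5280, 7845, 6451 and 5507 UMIs against 4599.5, 4582.5, 4313 and 3540. Among cells at or above the median depth, 58 genes were higher and 73 lower.

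**Figure D4:**
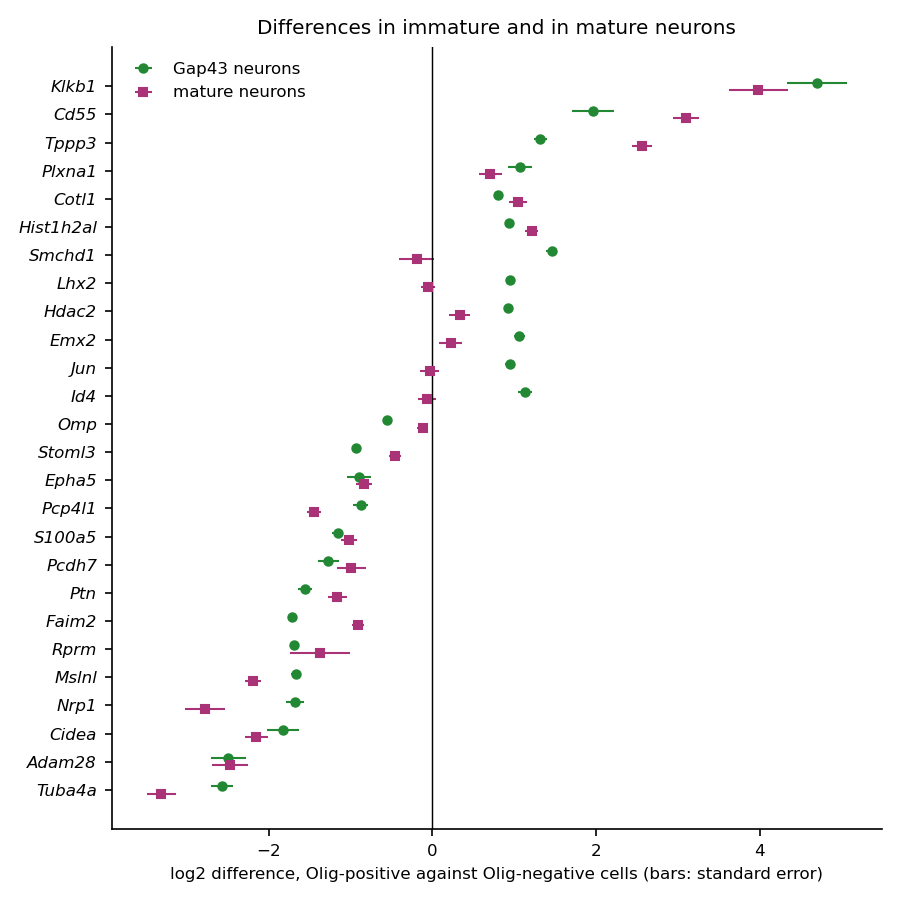
Log2 differences between Olig-positive and Olig-negative cells for 26 genes (rows), in Gap43 neurons (green circles) and in mature neurons (purple squares), with standard errors from edgeR. Tuba4a, Nrp1 and Mslnl are low and Klkb1, Cd55 and Tppp3 high in both, while Smchd1, Lhx2, Emx2, Jun and Id4 lie near 0 in mature neurons.

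Receptor use was read from the leading receptor of each cell. This was the odorant, trace amine or vomeronasal receptor gene with the most UMIs, when it had at least 3 and at least 2 times as many as the next. Fewer Olig-positive than Olig-negative Gap43 neurons had one: 54.7%, 56.6%, 55.5% and 70.1% against 66.2%, 74.0%, 71.7% and 91.8% at P0, P3, P7 and P21. The intervals did not overlap in any library (48.4 to 60.9% against 61.6 to 70.5% at P0). In mature neurons 80.6% to 91.9% and 83.9% to 89.1% of the cells had one. Olig-positive cells used many receptors, with 119, 176, 115 and 75 different leading genes in 140, 214, 132 and 82 cells and at most 4 cells on any receptor in a library.

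The place of the leading receptor in the genome differed between the classes. Receptors on chromosome 10 led 17.9%, 14.95%, 13.6% and 13.4% of the Olig-positive Gap43 neurons with a leading receptor and 3.93%, 2.55%, 7.75% and 1.28% of the Olig-negative ones, a mean difference of 11.1 ± 3.56 percentage points (SD, n = 4 libraries), higher in 4 of 4. An exact sign-flip test of 4 libraries cannot go below a two-sided p of 0.125. This came from the distal cluster, 71 receptor genes from 128989431 to 130497396 in mm10. Of the 114 Gap43 neurons it led, 84 were Olig-positive (73.7%, 64.6 to 81.5%), against 568 of all 1724 with a leading receptor (32.9%). By library these were 25 of 40, 30 of 38, 18 of 21 and 11 of 15. The other chromosome 10 receptors behaved otherwise: 2 of 15 cells led by a smaller cluster at 78517428 to 79493585 and 0 of 10 led by the trace amine receptor cluster at 23920356 to 24109534 were Olig-positive. Clusters were cut where receptor genes lie more than 1 Mb apart, as decided with the data in view, and cells of a library are not replicates.

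No other cluster with at least 40 led Gap43 neurons reached a share like that. The next were on chromosomes 11 (23 of 50 cells, 46.0%) and 9 (25 of 57, 43.9%), whose intervals reach down to 31.8% and 30.7%. The lowest was on chromosome 14 with 13 of 63 (20.6%, 11.5 to 32.7%), and the largest, 285 genes on chromosome 2, had 80 of 328 (24.4%, 19.8 to 29.4%). Among clusters that led at least 40 mature neurons, the distal chromosome 10 cluster again had the highest share, 49 of 84 cells (58.3%, 47.1 to 69.0%) against 324 of 1285 over all (25.2%). The lowest of them, at the end of chromosome 7 (140159999 to 140722112), had 1 of 41 (2.44%, 0.06 to 12.9%). Over the 68 receptors that led at least 3 cells of both kinds, the Olig-positive shares in Gap43 and in mature neurons had a Pearson r of 0.56 and a Spearman rho of 0.56, across receptors that come from the same 4 libraries and are not independent.

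**Figure D5:**
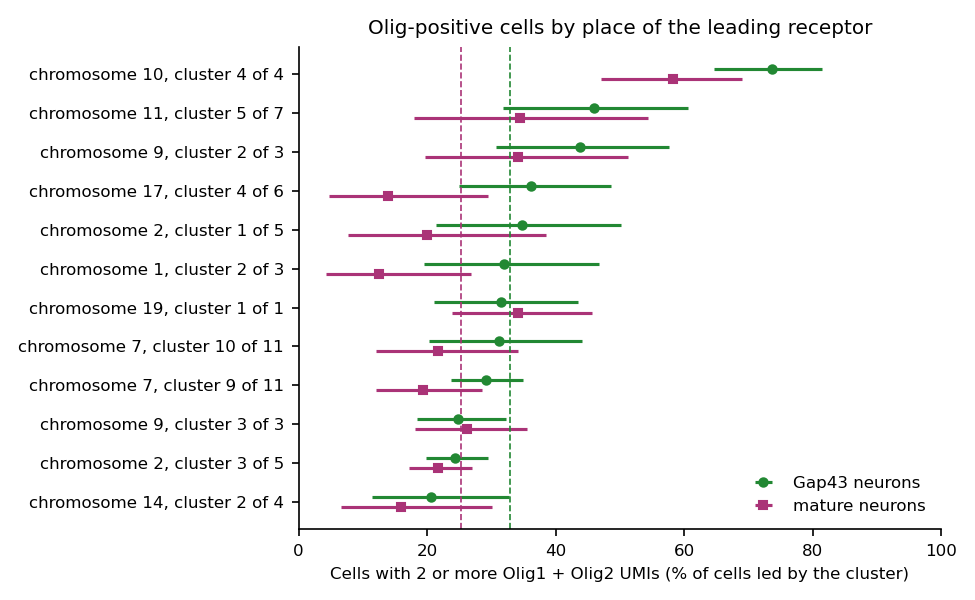
Share of Olig-positive cells (horizontal axis, %) among the cells led by each receptor cluster with at least 40 led Gap43 neurons, in Gap43 neurons (circles) and mature neurons (squares), with 95% Clopper-Pearson intervals; dashed lines give the share over all cells with a leading receptor. Cluster 4 of 4 on chromosome 10 stands at 73.7% and 58.3%, above the overall 32.9% and 25.2%.

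Single receptors lay at both ends. All 9 Gap43 neurons led by Olfr813 were Olig-positive, 3 at P0, 4 at P3 and 2 at P7, as were 6 of 6 led by Olfr127 (chromosome 17, in 3 libraries) and 6 of 6 led by Olfr669 (chromosome 7). On chromosome 10, 5 of 6 led by Olfr794 and 5 of 6 led by Olfr821 were, and in mature neurons 8 of 8 led by Olfr827. Conversely, 0 of 6 cells led by Olfr691 in 4 libraries, 0 of 7 led by Olfr160 and 0 of 7 led by Olfr152 were Olig-positive, and in mature neurons 0 of 9 led by Olfr1301 and 1 of 15 led by Olfr536. Of the 37 receptors that led at least 6 Gap43 neurons, 3 were Olig-positive in all their cells and 7 in none. Receptors with few cells were named here after their values were seen, apart from the 8 that led the most Olig-positive cells.

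The UMIs of single receptors come from a handful of cells each and are given without a test. Olfr127 had 60, 50, 67 and 167 UMIs in Olig-positive and 0 in all Olig-negative cells, and Olfr794 had 57, 33, 140 and 47 against 13, 0, 0 and 0. Olfr691 had none in Olig-positive cells and 28, 70, 66 and 28 UMIs in Olig-negative ones. The dorsal zone marker Nqo1 (2 or more UMIs) was found in 37.9%, 42.1%, 31.1% and 32.9% of the Olig-positive and 39.3%, 34.7%, 26.4% and 32.1% of the Olig-negative Gap43 neurons with a leading receptor, with overlapping intervals in each library.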

How the data were processed

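The authors' deposited tables hold whole-number counts of UMIs per gene and cell, not normalized, from 10x 3' libraries, 1 per age. Per the submitters' processing notes, Cell Ranger 2.1.1, Seurat and mm10 were used; whether cells were filtered before deposit is not stated there. Cells were kept with 500 or more genes and mitochondrial UMIs of 10% or less. The Olig1/Olig2 rule, the gene lists and the tests were chosen with earlier results of these data known. The Sox10 limit was set on the comparison cells too. Doublets were not removed; an alternative left out the cells with the highest scores, 0.8% per 1000 cells.

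Counts were summed per library and class and tested with edgeR 4.0.16 (quasi-likelihood, TMM, filterByExpr, library as block, Benjamini-Hochberg). The block is the library that both classes come from. The procedure was tested on simulated data. A gene was called at adjusted p under 0.05 and 1.5-fold. CPM carry exact Poisson and shares Clopper-Pearson intervals at 95%. Named genes were the 15 higher and 15 lower with the smallest p that moved alike in each library, receptor genes apart, then the receptors that led most Olig-positive cells or passed the limits, and up to 5 called members per list. Of the 15 lower, 1 is not reported here. Olig1, Olig2, Gap43 and Sox10 were left out of tests. In mature neurons, the 10 named in each direction were taken in the same way. Coordinates are those of GENCODE for mm10, and promoter windows those of RefSeq.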

Additional observations from a re-analysis of the deposited data

Results flagged for a closer look

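Of 67 genes examined, 3 had 1 library in which the log2 ratio of Olig-positive to Olig-negative Gap43 neurons (CPM with 10 added) lay apart from the other libraries by Dixon's criterion; chance flags about 1 in 20 such groups of 4. Hes6, a precursor gene, stood at 2.67 in the P21 library and at 0.84 to 1.12 in the others, with 35.6 CPM in its Olig-negative cells there against 133 to 157. Fabp7, a glial marker, stood at -2.46 in the P3 library and at -0.04 to 0.43 in the others. Pcdh8, a protocadherin, stood at 0.94 in the P21 library and at 0.34 to 0.41 in the others, with 16.0 CPM in the Olig-negative cells there. Nothing further was tested.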

How the results depend on the processing

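Cells of a library are not replicates, each age is 1 library, and membership rests on 2 UMIs, so that shallow cells are missed. The intervals cover counting error only and not the cells missed for depth. Against 274 genes higher and 224 lower in Gap43 neurons, an Olig limit of 1 UMI gave 174 and 112, a Gap43 limit of 1 UMI 414 and 644 and of 5 UMIs 174 and 144, cells at or above the median depth 169 and 125, only cells with a leading receptor 127 and 116, DESeq2 131 and 105, no low-count filter 496 and 471, no replicate block (no library term) 102 and 64, and, added after the data were seen, only cells with 10 or more Omp UMIs 45 and 51. DESeq2 shared 129 and 103 of the called genes, the fit without the block 101 and 64. Leaving out 1 library gave 205 to 282 higher and 173 to 220 lower. Against 97 and 151 in mature neurons, deep cells gave 58 and 73, DESeq2 33 and 42, no filter 256 and 430 and no replicate block 15 and 20; without cells led by chromosome 10 receptors 60 were higher, and leaving out 1 library gave 67 to 89 and 97 to 149, the lowest count of lower genes without P21. The cause of these shifts was not tested, beyond the fewer genes tested in smaller sets. Of 1222 values of 64 named genes under the alternatives for Gap43 neurons, 1094 kept direction and side of the threshold, 121 lost the call, 2 gained it and 5 changed sign: Top2a at -0.10 and Nfia at -0.0003 (Gap43 limit 1), Fabp7 at 0.0764 (without P3; leaving out 1 library gave -2.47 to 0.0764), Pcdh9 at 0.21 and Gng8 at -0.18 (Omp of 10 or more). Without the block, 22 of the 64 genes lost the call. In mature neurons 249 of 255 values of 17 genes kept it.

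The Olig-positive share of Gap43 neurons at P0, P3, P7 and P21 was 51.2%, 68.6%, 66.7% and 66.8% at a limit of 1 UMI, 15.1%, 33.1%, 30.7% and 34.4% at 3, and 31.3%, 36.6%, 39.1% and 35.5% when thinned. The chromosome 10 difference was 6.89 points at a limit of 1 Olig UMI and 15.2 in mature neurons. Among deep cells the differences of Pcdh11x and Cyp4v3 were 3.23 and 2.26, and Cyp4v3 stood at 1.57 at a limit of 1. The mean shares with an Olig UMI, 44.6% of precursors, 38.9% of immature and 20.7% of mature neurons, were 63.4%, 63.7% and 44.7% without thinning.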

Other observations

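Olig1 and Olig2 did not keep a fixed ratio along the lineage. In precursors Olig1 stood at 0.620, 1.01, 1.15 and 0.987 times Olig2 at P0, P3, P7 and P21, in Gap43 neurons with little Omp at 0.812, 1.24, 1.24 and 1.33 times, in Gap43 neurons with 10 or more Omp UMIs at 1.4, 1.90, 1.75 and 2.30 times and in mature neurons at 1.15, 1.89, 2.20 and 2.97 times. Fitted without cells led by chromosome 10 receptors, the Gap43 comparison gave 273 genes higher and 212 lower, 249 and 196 of them among those called with all cells.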
